A study of Mus musculus with 94 samples.

Results

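The genes described here encode chains of the cell surface receptors through which basophils sense interleukin-3 (IL-3), IL-33, IL-18 and related cytokines. They were chosen by name and number 10 of the 46078 mouse genes in the count table: Il3ra, Csf2rb, Csf2rb2, Il18r1, Il18rap, Il1rl1, Il5ra, Il10ra, Crlf2 and Il4ra. Their RNA was measured in single bone marrow basophils of female C57BL/6 mice, 3 in number. Every cell was live, lineage-negative, Sca1-negative and FcεRI-positive, FcεRI being the high-affinity IgE receptor. The cells were divided into 47 of a CD34-negative and 47 of a CD34-positive gate, CD34 marking stem and progenitor cells of the blood. No treatment is named in the labels.

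Basophils are rare granulocytes that mature in the bone marrow and are known for their part in allergy and in responses to parasitic worms. IL-3 is their main growth and survival factor. It binds an alpha chain, encoded by Il3ra, which signals through a beta chain. Mice have the common beta chain, encoded by Csf2rb and shared with the receptors for IL-5 and GM-CSF, and a close relative encoded by Csf2rb2 that serves IL-3 alone. IL-33 and IL-18 are relatives of IL-1. Each binds its own chain, Il1rl1 (ST2) for IL-33 and Il18r1 for IL-18, which pairs with an accessory chain (Il1rap or Il18rap) and signals through the adaptor MyD88. TSLP, IL-4 and IL-10 bind pairs that contain the products of Crlf2, Il4ra and Il10ra and signal, like IL-3, through Janus kinases and STAT proteins.

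No label ties a cell to a mouse. The gates are therefore 1 sample each, and no test of the difference between them was possible. Of the 94 cells, 92 were kept, 46 per gate, and each was a library of its own, with no identical columns among them. They held 262944 to 938322 gene reads per CD34-negative cell and 374011 to 1154738 per CD34-positive cell. The median cell had reads of 5303.5 genes in the CD34-negative and 7511.5 genes in the CD34-positive gate, and the median number of gene reads per read of the ERCC spike-in RNA was 6.87 and 14.4. All 10 basophil markers on a list had reads in both gates, and their summed level was 48420 counts per 1000000 gene reads (CPM) in the CD34-negative and 99730 CPM in the CD34-positive gate. Of these markers 3 were at least 2-fold higher in the CD34-positive gate (the proteases Prss34, Mcpt8 and Cpa3), 3 at least 2-fold lower (Cd200r3, Hdc and Itga2), and their median log2 fold was -0.02. With scaling to ERCC reads 0 were lower and 5 higher, with a median of 0.95. Of the 12460 genes with reads in at least 10 cells, 10.1% were at least 2-fold lower and 21.7% higher relative to gene reads. On the ERCC scale these shares were 2.34% and 52.7%, with a median of 1.06. Cd34 itself had 7 reads over all CD34-negative and 1799 over all CD34-positive cells, with a read in 28 of the latter and none in 18. Cell 10 of the CD34-negative gate had the lowest summed level of the basophil markers in its gate, 2289 CPM against a gate median of 24330 CPM. It also had the highest summed level of 6 monocyte and dendritic cell markers, 1943 CPM against a median of 295.1 CPM, and held 75.8% of the gate's reads of Csf1r, the receptor of the monocyte growth factor M-CSF. That sum came from Csf1r (966.0 CPM) and Ccr2 (977.4 CPM), and 8 cells of the gate had more Ccr2. The other markers of the list, Ly6c2, Cd14, Flt3 and Siglech, had no read in cell 10. Cell 37 of the CD34-positive gate had no read of Cd34, Kit or Mpo and 905.2 CPM of Ccl6, a chemokine gene lower in that gate, of which cells 46 and 23 had more, 2102 and 4080 CPM. The lowest summed levels of the basophil markers among CD34-positive cells were those of cells 1, 41, 6, 35 and 40, from 5931 to 12210 CPM, and the next was 37480 CPM.

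Of the 10 genes, 6 were at least 2-fold lower in the CD34-positive than in the CD34-negative gate (Csf2rb, Csf2rb2, Il18r1, Il18rap, Il10ra and Il4ra) and 0 were at least 2-fold higher. Over the 12460 genes with reads in at least 10 cells, 10.1% were at least 2-fold lower and 21.7% at least 2-fold higher. Il3ra, Il1rl1 and Crlf2 lay within 2-fold, and Il5ra had no read in any cell. Leaving out any single cell of either gate gave the same counts, 6 and 0. The log2 folds here compare the summed reads of a gate as CPM plus 1, CD34-positive over CD34-negative. Their median over the 9 genes with reads was -1.64, against 0.19 over the 12460 genes. A scaling to ERCC reads in place of gene reads moved the median of the 12460 genes to 1.06. On it, 3 members were at least 2-fold lower (Il10ra, Il18r1 and Il4ra) and 2 at least 2-fold higher (Il1rl1 and Crlf2), beside 2.34% and 52.7% of all genes, and the members' median was -0.68. With scran size factors the 12460 genes had a median of 0.01 and with TMM factors of 0.37, and 6 members were lower and 0 higher with either. In the comparisons below, levels are relative to gene reads unless another scale is named. The read counts carry no molecular identifiers, so their 95% intervals cover only the error of counting and not the spread over mice.

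**Figure D1:**
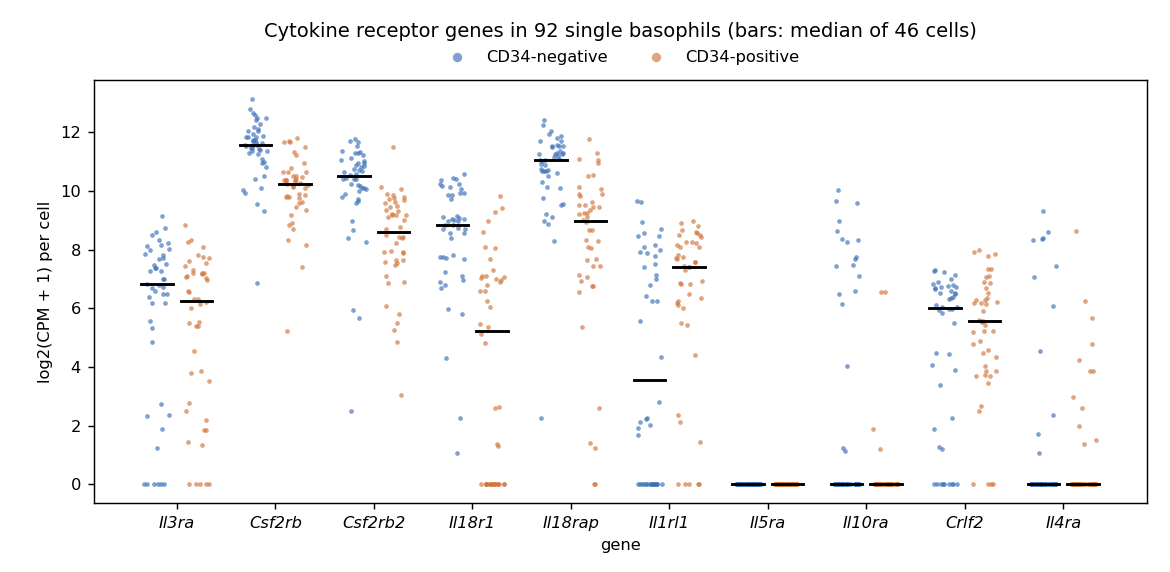
Level of each receptor gene in each of 46 CD34-negative (blue) and 46 CD34-positive (orange) cells, as log2(CPM + 1); black bars are medians over cells and cells at 0 lie on the baseline. The points of Csf2rb, Csf2rb2, Il18r1 and Il18rap lie mostly lower in the CD34-positive gate, the median of Il1rl1 is lower in the CD34-negative gate, and every Il5ra point is at 0.

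Il3ra (ENSMUSG00000068758, chr14:14346275-14356011, plus strand, build GRCm38), the chain that binds IL-3, was found at similar frequency in both gates where a single read was counted. Its level in CD34-negative cells had a lowest value of 0, a median of 111.5 and a highest value of 561.7 CPM. In CD34-positive cells the lowest was 0, the median 75.23 and the highest 462.5 CPM. The ranges overlapped almost throughout, and 19 of 46 CD34-positive cells lay above the CD34-negative median. The summed level was 143.3 CPM (4794 reads) in the CD34-negative and 103.0 CPM (3094 reads) in the CD34-positive gate. The log2 fold was -0.47 (counting interval -0.56 to -0.38) and changed direction to 0.49 when scaled to ERCC reads. To compare cells at an equal number of gene reads, 200000 were drawn from each. As the gates differ in gene reads per ERCC read, an equal draw need not be an equal part of a cell's RNA. Il3ra then had a read in 38 of 46 cells of each gate, 82.6% (exact 95% interval 68.6 to 92.2%). Where at least 10 reads were asked for, the CD34-positive share fell below this interval and the CD34-negative share stayed within it.

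Csf2rb (ENSMUSG00000071713, chr15:78325752-78353847, plus strand), the common beta chain, was the most abundant of the receptor genes. In CD34-negative cells it had a lowest level of 114.1, a median of 3048 and a highest of 8978 CPM. The lowest of these was cell 10, and the next lowest cell had 632.9 CPM. In CD34-positive cells the lowest was 36.71, the median 1221 and the highest 3567 CPM. The gates overlapped at the edges: 4 CD34-positive cells lay above the CD34-negative median and 6 CD34-negative cells below the CD34-positive median. The summed level was 3398 CPM in the CD34-negative and 1334 CPM in the CD34-positive gate, a log2 fold of -1.35 (counting interval -1.37 to -1.33). The log2 fold was -0.38 relative to ERCC reads.

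Csf2rb2 (ENSMUSG00000071714, chr15:78282507-78305721, minus strand), the beta chain particular to IL-3, lies next to Csf2rb and was lower in the CD34-positive gate as well. Its lowest, median and highest levels were 4.676, 1453 and 3525 CPM in CD34-negative cells. They were 7.265, 388.1 and 2916 CPM in CD34-positive cells. The highest of these, cell 37, stood apart from the next cell at 1116 CPM and held 13.5% of the gate's Csf2rb2 reads. It was the only CD34-positive cell above the CD34-negative median. The summed levels were 1566 and 500.0 CPM, a log2 fold of -1.64 (-1.68 to -1.61), and without cell 37 it was -1.82. It was -0.68 relative to ERCC reads. Both beta chains had a read in all 46 cells of each gate at 200000 reads, so the number of cells with reads of Il3ra and a beta chain was that of Il3ra alone, 38 and 38.

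The 2 beta chain genes are near copies, which limits how well short reads tell them apart. Their coding sequences, of 2688 bases in Csf2rb and 2634 in Csf2rb2 (GENCODE annotation of GRCm38), aligned over 2628 bases with 95.2% identity. Of all windows as long as a read, 50 bases, 892 occurred in both, which is 12.3% of the windows of Csf2rb exons and 18.4% of those of Csf2rb2. The longest stretch without a difference was 242 bases, from base 2083 to 2324 of both coding sequences. How the counting treated a read that fits both genes is not given in the sources used here, so the split between them is uncertain in such stretches. The 90 bases below, where the genes differ most, are shown to make clear where a read can be assigned. They run from base 308 to 397 of the Csf2rb and 311 to 400 of the Csf2rb2 coding sequence, both in the coding exons, and capitals mark the 16 bases that differ.
Csf2rb: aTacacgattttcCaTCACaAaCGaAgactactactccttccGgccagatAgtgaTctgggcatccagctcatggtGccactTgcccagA
Csf2rb2: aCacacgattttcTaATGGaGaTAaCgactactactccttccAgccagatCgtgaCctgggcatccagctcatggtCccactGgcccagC
Csf2rb2 took 31.5% (95% interval 31.3 to 31.8%) of the reads of the pair in the CD34-negative gate and 27.3% (26.9 to 27.6%) in the CD34-positive gate. The share varied far more from cell to cell, from 0.481 to 70.4% with a median of 31.4% in CD34-negative and from 2.76 to 75.8% with a median of 24.4% in CD34-positive cells. Csf2rb2 had more reads than Csf2rb in 4 cells of each gate.

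Il18r1 (ENSMUSG00000026070, chr1:40465552-40500854, plus strand), the chain that binds IL-18, differed between the gates both in level and in the number of cells with a read. Its lowest, median and highest levels were 1.096, 454.3 and 1547 CPM in CD34-negative cells. In CD34-positive cells they were 0, 36.89 and 908.5 CPM. Only 4 CD34-positive cells lay above the CD34-negative median, and 3 CD34-negative cells lay below the CD34-positive median. The summed level was 580.5 CPM in the CD34-negative and 114.3 CPM in the CD34-positive gate, 5.08 times lower. The log2 fold was -2.33 (-2.40 to -2.27), -1.37 relative to ERCC reads and -2.87 with cells numbered 7 to 42 only. At 200000 reads Il18r1 had a read in all 46 CD34-negative cells and in 27 CD34-positive cells, 58.7% (43.2 to 73.0%).

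Il18rap (ENSMUSG00000026068, chr1:40515362-40551705, plus strand), the accessory chain needed for signalling by IL-18, was found in nearly every cell and was lower in the CD34-positive gate. In CD34-negative cells its lowest level was 3.803 CPM in cell 10 and 310.2 CPM in the next lowest, with a median of 2148 and a highest level of 5492 CPM. In CD34-positive cells the lowest was 0, the median 504.9 and the highest 3475 CPM. As with Il18r1, 4 CD34-positive cells lay above the CD34-negative median and 3 CD34-negative cells below the CD34-positive median. The summed levels were 2224 and 710.4 CPM, a log2 fold of -1.65 (-1.68 to -1.62), and -0.68 relative to ERCC reads. At 200000 reads 46 CD34-negative and 43 CD34-positive cells had a read.

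Reads of both IL-18 receptor chains were found together in 46 of 46 CD34-negative cells (100%, 92.3 to 100%). In the CD34-positive gate 26 of 46 cells had both (56.5%, 41.1 to 71.1%), 17 had Il18rap only, 1 had Il18r1 only and 2 had neither. Without cell 10 the CD34-negative count was 45 of 45. Cell 10 had 1 read of each chain and cell 6 had Il18r1 at 1.096 CPM, so another draw could miss them. Il18r1 made up 20.7% of the reads of the 2 genes in the CD34-negative gate and 13.9% in the CD34-positive, and the cell medians were 19.2% and 5.66%. The gates overlapped here too, with a highest share of 63.9% in a CD34-negative and of 100% in a CD34-positive cell.

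Il1rl1 (ENSMUSG00000026069, chr1:40429570-40465415, plus strand) encodes ST2, the chain that binds IL-33. Its gene ends 136 bases before Il18r1 begins. It was found in more CD34-positive than CD34-negative cells. The median CD34-positive cell also had reads of more genes, 7511.5 against 5303.5 in the CD34-negative gate. In CD34-negative cells its lowest, median and highest levels were 0, 12.59 and 809.0 CPM, and in CD34-positive cells they were 0, 168.0 and 504.6 CPM. Of the CD34-positive cells, 38 lay above the CD34-negative median, while 15 CD34-negative cells lay above the CD34-positive median. The highest single values were in the CD34-negative gate, whose cell 13 held 14% of its reads. The summed levels differed less than the medians, 140.6 CPM in the CD34-negative and 176.5 CPM in the CD34-positive gate. The log2 fold was 0.33 (0.25 to 0.41), 0.51 without cell 13 and 1.29 relative to ERCC reads. The median of the 12460 genes was 0.19 relative to gene reads and 1.06 relative to ERCC reads. At 200000 reads 26 CD34-negative cells (56.5%, 41.1 to 71.1%) and 39 CD34-positive cells (84.8%, 71.1 to 93.7%) had a read. Among cells with any Il1rl1 read the median level was 153.3 CPM in the CD34-negative and 190.6 CPM in the CD34-positive gate. Il1rl1 has a membrane-bound and a soluble product from the same gene, and gene counts do not tell them apart.

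Reads of the chains that bind IL-18 and IL-33 were also counted in the same cells. Whether they went together beyond the counts of each gene was not tested. In the CD34-negative gate 26 cells had reads of both Il18r1 and Il1rl1, 20 of Il18r1 only and 0 of Il1rl1 only. For the last, 0 of 46 cells allows a share of up to 6.52%. Since all 46 cells had a read of Il18r1, this 0 follows from the Il18r1 count. It rests on a single draw of reads: cell 6 had Il1rl1 at 179.8 CPM and Il18r1 at only 1.096 CPM. In the CD34-positive gate 23 cells had both, 4 Il18r1 only, 16 Il1rl1 only and 3 neither.

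The receptors lie in a cluster of IL-1 receptor genes on chromosome 1. Going along the plus strand, the cluster holds Il1r2, Il1r1, Il1rl2, Il1rl1, Il18r1, Il18rap and the sodium/proton exchanger gene Slc9a4. Over all 92 cells Il1rl1 had 10003 reads, Il18r1 22846 and Il18rap 95727. The genes on either side were nearly silent: Il1r2 had 0 reads, Il1r1 1 read, Il1rl2 69 reads, found in a single CD34-positive cell after drawing, and Slc9a4 1 read.

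The promoters are printed for Il1rl1 and Il18rap, genes of the cluster with unlike patterns on either side of Il18r1, and for Csf2rb2, whose level followed that of Il18rap across cells. Each is the 250 bases before an annotated start in the RefSeq annotation of GRCm38.p6, read 5′ to 3′ on the gene's strand, and holds no exon. The first is chr1:40429320-40429569 (plus strand), the second chr1:40515112-40515361 (plus strand) and the last chr15:78305722-78305971 (minus strand). Capitals mark the letters AGATAA or TGATAA on either strand, the form bound by GATA factors such as GATA2, a regulator of basophils.
Il1rl1: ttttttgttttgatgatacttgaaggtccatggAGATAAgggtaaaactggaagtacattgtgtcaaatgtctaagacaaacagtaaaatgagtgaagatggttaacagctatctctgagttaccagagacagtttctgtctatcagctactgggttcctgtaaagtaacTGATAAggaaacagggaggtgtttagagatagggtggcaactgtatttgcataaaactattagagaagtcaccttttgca
Il18rap: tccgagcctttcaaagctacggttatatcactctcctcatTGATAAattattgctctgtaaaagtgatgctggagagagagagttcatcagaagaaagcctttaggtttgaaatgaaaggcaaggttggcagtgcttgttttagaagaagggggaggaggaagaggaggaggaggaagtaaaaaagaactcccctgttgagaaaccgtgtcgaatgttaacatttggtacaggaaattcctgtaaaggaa
Csf2rb2: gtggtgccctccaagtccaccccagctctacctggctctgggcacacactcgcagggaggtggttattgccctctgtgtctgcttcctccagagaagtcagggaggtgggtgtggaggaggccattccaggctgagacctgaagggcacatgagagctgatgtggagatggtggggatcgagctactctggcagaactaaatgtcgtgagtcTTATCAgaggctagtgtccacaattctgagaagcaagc
The printed Il1rl1 window held 2 such matches, 217 to 212 and 80 to 75 bases before the start. Another annotated start of Il1rl1, not printed, had 1 at 103 to 98 bases. Il18rap had 1 at 210 to 205 bases and Csf2rb2 1 at 38 to 33 bases before the start. Csf2rb2 also held TTCNNNGAA, the STAT5 form, 15 to 7 bases before its start. Over 32841 promoter windows of the same length, 16.6% held a GATA match and 7.0% a STAT match, so the former is common. These shares are per window, and the members were matched to 11 windows, of which 5 held a GATA match and 2 a STAT match. Of the 8 members matched to RefSeq promoters, 4 held a GATA match in a window (Il1rl1, Il18rap, Csf2rb2 and Il5ra) and 4 did not (Il3ra, Il18r1, Crlf2 and Il4ra). A STAT match was held by 2, Csf2rb2 and Il18r1. The match in Il5ra (74 to 69 bases before its start) lies in a gene with no reads. No peak or methylation data bear on these letters here. Csf2rb and Il10ra were not matched.

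Il5ra (ENSMUSG00000005364, chr6:106710357-106749037, minus strand), the IL-5 binding chain typical of eosinophils, had 0 reads in each of the 92 cells. Taken as up to 3 reads per gate, this allows up to 0.0897 CPM in the CD34-negative and 0.0999 CPM in the CD34-positive gate, and a share of up to 3.26% of the 92 cells with a read. Of 8 eosinophil markers, 6 had reads, at 174.6 and 117.0 CPM in sum, mostly from Siglecf and Ccr3 in the CD34-negative gate. Prg2, the eosinophil major basic protein, had 0 reads over the CD34-negative and 1443 over the CD34-positive cells, 96.5% of them in cell 34. Ear1 and Ear6 were at 0 in both gates and Epx, the eosinophil peroxidase, had 0 and 6 reads.

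Il10ra (ENSMUSG00000032089, chr9:45253837-45269149, minus strand), the chain that binds the dampening cytokine IL-10, had the largest fold between the gates among the 9 genes with reads. Its level in CD34-negative cells had a lowest value and a median of 0 and a highest value of 1047 CPM. In CD34-positive cells the lowest and the median were 0 and the highest 93.03 CPM. Thus 18 CD34-negative cells (39.1%, 25.1 to 54.6%) but 4 CD34-positive cells (8.70%, 2.42 to 20.8%) had a read at 200000 reads, and most cells of both gates had none. The summed levels were 102.0 CPM (3412 reads) and 3.863 CPM (116 reads), 26.4 times lower, a log2 fold of -4.41 (-4.67 to -4.14). It was -3.59 relative to ERCC reads and -3.01 with 10 CPM added in place of 1. Few cells carried it: cell 37 held 55.2% of the CD34-positive reads, and the log2 fold was -5.22 without it. Cell 10, which had reads of Csf1r and Ccr2 alone among the listed monocyte markers, had 810.1 CPM of Il10ra. This was the second highest of its gate, and the log2 fold was -4.32 without cell 10.

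Crlf2 (ENSMUSG00000033467, chr5:109554709-109558993, minus strand) encodes the chain that binds TSLP, an epithelial cytokine that acts on basophils. Its lowest, median and highest levels were 0, 63.68 and 157.6 CPM in CD34-negative and 0, 45.85 and 254.0 CPM in CD34-positive cells. The median was lower and the sum higher in the CD34-positive gate, 59.59 against 69.66 CPM. The log2 fold of 0.22 (0.10 to 0.35) turned to -0.05 with scran size factors and was 1.18 relative to ERCC reads, so no direction held. At 200000 reads 34 CD34-negative cells (73.9%, 58.9 to 85.7%) and 41 CD34-positive cells (89.1%, 76.4 to 96.4%) had a read. Where at least 10 reads were asked for, the shares were 54.3% and 52.2%.

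Il4ra (ENSMUSG00000030748, chr7:125552120-125579474, plus strand), the chain that binds IL-4, had reads in a minority of cells of both gates, 10 CD34-negative cells (21.7%, 10.9 to 36.4%) and 9 CD34-positive cells (19.6%, 9.36 to 33.9%). Where at least 10 reads were asked for, 17.4% of CD34-negative and 4.35% of CD34-positive cells had them. The median was 0 in both gates, and the highest cells had 639.5 CPM in the CD34-negative and 397.2 CPM in the CD34-positive gate. The summed levels were 53.34 CPM (1784 reads) and 12.35 CPM (371 reads), a log2 fold of -2.02 (-2.23 to -1.82). Single cells set this size. Cell 1 held 64.2% of the CD34-positive reads, and the log2 fold was -3.30 without it. It was the cell with the lowest summed basophil markers of its gate, and the next highest in Il4ra, cells 41 (75.75 CPM) and 45 (50.44 CPM), had the second and sixth lowest sums. Cell 21 held 30.4% of the CD34-negative reads, and the log2 fold was -1.55 without it. It was -3.75 with cells numbered 7 to 42 and -1.11 relative to ERCC reads. An antisense gene, Gm44876, overlaps 571 bases of Il4ra exons, and the strand setting of the counting is not given in the sources used here.

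**Figure D2:**
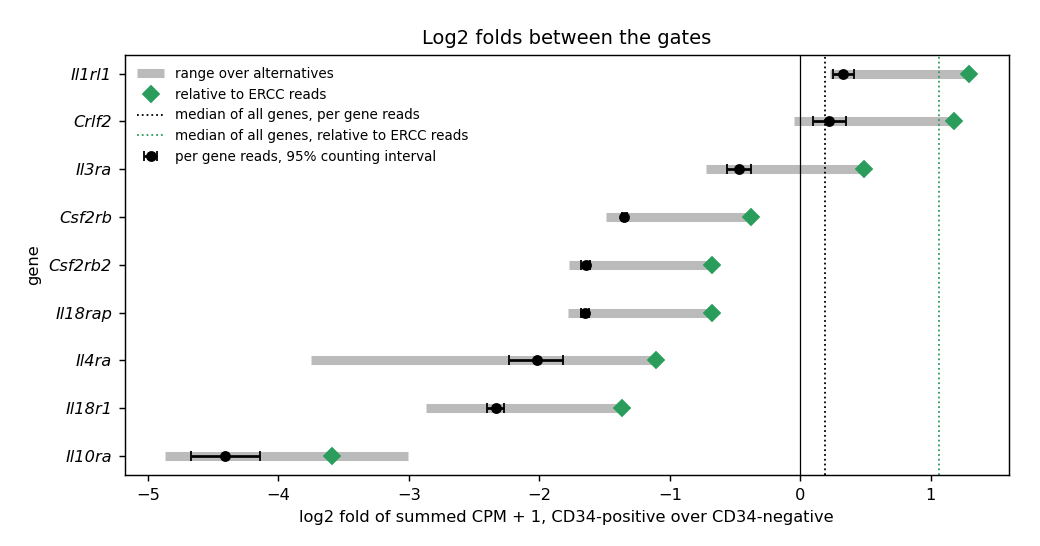
Log2 fold of the summed level (CPM + 1), CD34-positive over CD34-negative, for the 9 genes with reads; black points are scaled to gene reads with 95% counting intervals, green diamonds to ERCC reads, grey bars span the alternatives of the processing (single cells left out in turn not included) and dotted lines mark the medians of 12460 genes. Il10ra, Il18r1 and Il4ra lie below -1 on both scales, and Il3ra is at -0.47 on one and at 0.49 on the other.

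Levels of different genes were compared only per kilobase of exon. In the CD34-negative gate the order ran from Csf2rb (467 CPM per kilobase) through Csf2rb2 (330), Il18rap (329), Il18r1 (121), Il3ra (48.3), Crlf2 (39.9), Il10ra (29.2), Il1rl1 (20.4) and Il4ra (8.89) to Il5ra (0). The ranges from the lower to the upper quartile of the cells overlapped between every pair of neighbours in this order except Il18rap and Il18r1, among the pairs with reads. In the CD34-positive gate Csf2rb (183 CPM per kilobase), Csf2rb2 (105) and Il18rap (105) again led, followed by Crlf2 (46.6), Il3ra (34.7), Il1rl1 (25.6), Il18r1 (23.7), Il4ra (2.06), Il10ra (1.10) and Il5ra (0). There all neighbours overlapped. Il18r1 thus stood next below Il18rap in the CD34-negative gate, and below Il1rl1 in the CD34-positive gate.

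The number of the 10 genes with a read at 200000 reads was 5 to 9 per CD34-negative cell and 4 to 8 per CD34-positive cell, with a median of 7 in both. At 100000 gene reads, and where at least 10 reads were asked for, the CD34-positive median was lower by 1. The means were 6.74 ± 1.06 (SD over 46 cells) and 6.37 ± 0.974.

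**Figure D3:**
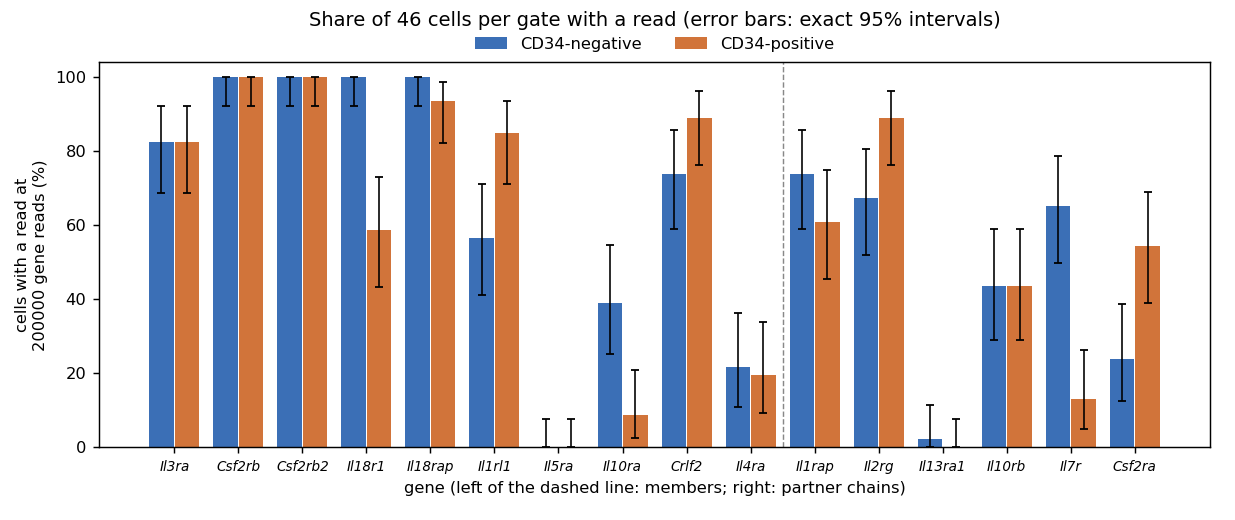
Share of the 46 cells of each gate (blue CD34-negative, orange CD34-positive) with a read of each receptor gene and of 6 partner chains after drawing 200000 gene reads per cell, with exact 95% intervals. Il18r1, Il10ra and Il7r had a read in fewer CD34-positive cells, at 58.7%, 8.70% and 13%, and Il1rl1 and Csf2ra in more, at 84.8% and 54.3%.

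A receptor needs the second chain of its pair, so 6 partner genes were examined. Of these, 3 were at least 2-fold lower in the CD34-positive gate (Il7r, Il10rb and Il13ra1) and 0 higher, with a median log2 fold of -1.03. Without cell 10, Il13ra1 had no reads, and of the other 5 genes 1 was at least 2-fold lower (Il7r) and 1 at least 2-fold higher (Csf2ra). With scaling to ERCC reads 2 were lower and 2 higher, with a median of -0.09. Over the 12460 genes, 10.1% were lower and 21.7% higher relative to gene reads, and 2.34% and 52.7% relative to ERCC reads. Il7r, the partner of Crlf2 and also the IL-7 receptor, had summed levels of 166.5 and 26.41 CPM, a log2 fold of -2.61 (-2.75 to -2.48) and of -1.67 relative to ERCC reads. Cell 23 held 37.1% of the CD34-positive reads of Il7r, and the log2 fold was -3.22 without it. Il10rb had 47.99 and 20.91 CPM (log2 fold -1.16, and -0.99 without cell 10). All 171 reads of Il13ra1 came from cell 10. Il1rap, the partner of Il1rl1, had 124.4 and 65.93 CPM, a log2 fold of -0.91 that was 0.05 relative to ERCC reads. In the opposite direction lay Il2rg, the common gamma chain, with 78.67 and 145.3 CPM (log2 fold 0.88), and Csf2ra, the GM-CSF binding chain, with 15.61 and 31.40 CPM (log2 fold 0.96, and 1.17 without cell 10).

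Read together in the same cell, the pairs for TSLP and GM-CSF differed most between the gates after those for IL-18. Crlf2 and Il7r had reads together in 20 CD34-negative cells (43.5%, 28.9 to 58.9%) but 6 CD34-positive cells (13%, 4.94 to 26.3%), where 35 cells had Crlf2 only. There 0 cells had Il7r only, so the CD34-positive count is that of Il7r alone. Csf2ra and Csf2rb were found together in 11 CD34-negative cells (23.9%, 12.6 to 38.8%) and 25 CD34-positive cells (54.3%, 39 to 69.1%). As Csf2rb had a read in all 46 cells of each gate, these are the counts of Csf2ra alone. The 11 cells include cell 10, the highest of its gate in Csf2ra. The IL-33 pair of Il1rl1 and Il1rap was found in 20 and 23 cells, and the cells with Il1rl1 only numbered 6 and 16. Il4ra and Il2rg were found together in 7 and 8 cells and Il10ra with Il10rb in 7 and 1. Il4ra with Il13ra1, the form that also binds IL-13, was found in 0 cells of either gate, which allows up to 6.52% of each. A missing read of a gene at these low levels does not show that the cell lacks the chain.

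**Figure D4:**
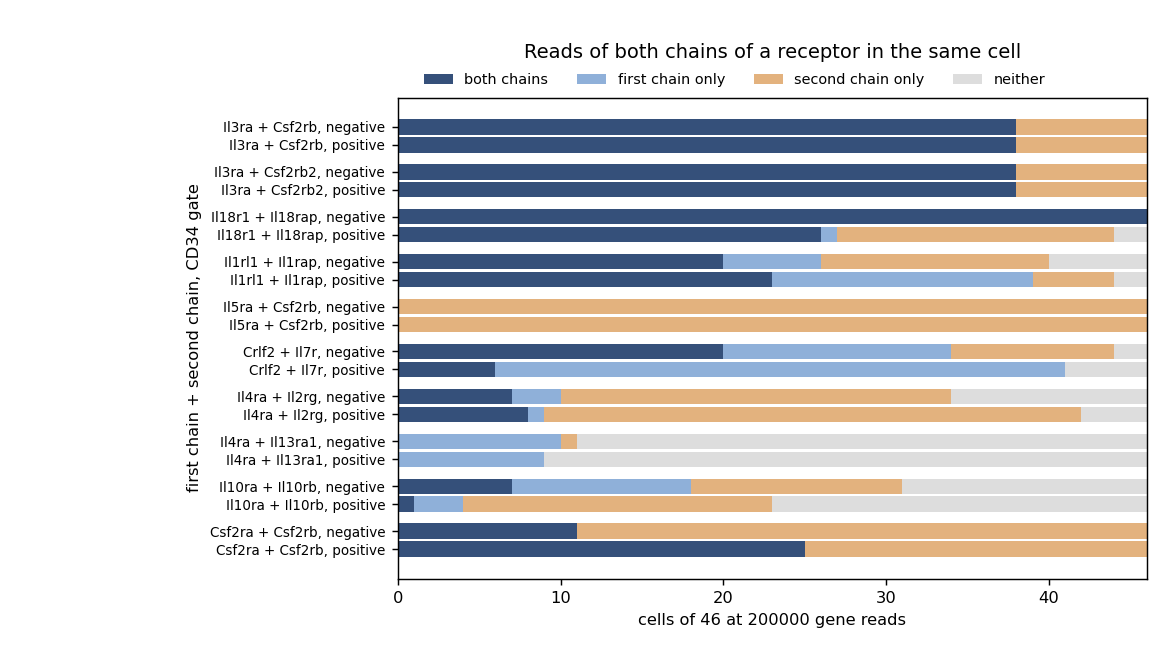
Number of the 46 cells of each gate with reads of both chains of a receptor, of the first or the second chain only, or of neither, after drawing 200000 gene reads per cell. The 2 IL-18 receptor chains were found together in 46 CD34-negative and 26 CD34-positive cells, and Crlf2 with Il7r in 20 and 6.

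Of the genes that transmit or restrain signals of the IL-18 and IL-33 receptors, 11 were listed (the MyD88 route). In the CD34-positive gate 2 were at least 2-fold lower, 3 at least 2-fold higher and 6 within 2-fold, with a median log2 fold of 0.33. Over the 12460 genes, 10.1% were lower and 21.7% higher. Relative to ERCC reads 1 gene of the list was lower and 6 higher, with a median of 1.29. This stands beside 2.34% lower, 52.7% higher and a median of 1.06 over the 12460 genes. Myd88 itself, the adaptor shared by both receptors, had 86.08 and 15.82 CPM, a log2 fold of -2.37 (-2.55 to -2.20) and of -1.45 relative to ERCC reads. Irak4, the first kinase recruited, had 101.1 and 41.86 CPM (log2 fold -1.25, -0.95 with TMM factors and -0.30 relative to ERCC reads). Irak1, the kinase that follows it, had 85.87 and 247.9 CPM (log2 fold 1.52), and Tab1, which activates the kinase TAK1, had 6.668 and 28.07 CPM (log2 fold 1.92, and 2.62 without cell 31, which held 45.3% of its CD34-negative reads). The third of the higher genes, Il18bp, a secreted protein that binds IL-18, had 4 and 98 reads.

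Of 13 genes of the JAK-STAT route, 3 were at least 2-fold lower, 1 at least 2-fold higher and 9 within 2-fold, with a median log2 fold of -0.70. The median was 0.25 relative to ERCC reads, with 2 lower and 5 higher, and -1.01 with scran size factors, with 7 lower and 1 higher. Over the 12460 genes, 10.1% were lower and 21.7% higher relative to gene reads. The shares were 2.34% and 52.7% relative to ERCC reads and 13.7% and 17.6% with scran size factors. Both the lower genes and the higher one, Socs1 (44 and 113 reads), encode feedback inhibitors induced by STAT proteins, and each was read in few cells. Socs2 had 406 reads over the CD34-negative cells and 0 over the CD34-positive ones, and Socs3 had 375 reads and 1 read. Cish, a target of STAT5, had 19.08 and 6.726 CPM (log2 fold -1.38). Cell 21 of the CD34-negative gate held 64.6% of the gate's Cish and 81.0% of its Socs2 reads, and without it the log2 fold of Cish was -0.04 and that of Socs2 -1.75. The log2 fold of Socs1 was 1.04, 0.60 without CD34-positive cell 2 and 1.74 without CD34-negative cell 37. Socs2 had reads in 3, Socs3 in 5 and Cish in 7 CD34-negative cells at 200000 reads.

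Of 9 ligand genes for these receptors, 5 had reads, 2 of them lower and 2 higher by at least 2-fold. On the ERCC scale 0 were lower and 2 higher. Over the 12460 genes, 10.1% were lower and 21.7% higher relative to gene reads, and 2.34% and 52.7% relative to ERCC reads. The list's median log2 fold was 0.05, and -0.08 with genes at 0 in a gate set at 3 reads there. Il4, a cytokine basophils are known to make, was the only abundant one. It had 138.3 and 55.14 CPM, a log2 fold of -1.31 (-1.42 to -1.20) and of -0.36 relative to ERCC reads, with a read in 41 and 35 cells. Il13 had 80 and 18 reads (log2 fold -1.08, and -0.58 without CD34-negative cell 6). Il3, Csf2, Il33 and Il10 had 0 reads in all 92 cells, Il18 39 reads in 1 CD34-positive cell and Tslp 32 reads, 84.4% of them in CD34-positive cell 40. Of the 4 genes past 2-fold, Il4 alone stayed past it when the cell with most reads of the gene was left out of either gate.

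Across cells of one gate, Csf2rb, Csf2rb2 and Il18rap varied together more closely than any of them did with Il3ra. Within the CD34-positive gate the Spearman correlation was 0.63 between Csf2rb and Il18rap, 0.55 between Csf2rb2 and Il18rap and 0.40 between Csf2rb and Csf2rb2. Within the CD34-negative gate these were 0.35, 0.46 and 0.32, and 0.30, 0.43 and 0.27 without cell 10. Il3ra lay between -0.18 and 0.22 with the 3 genes in either gate. Il18r1 and Il18rap correlated at 0.39 in the CD34-negative gate and 0.24 in the CD34-positive. Some relations were near 0 in one gate: Il18rap with Il7r was 0.56 in the CD34-positive and 0.00 in the CD34-negative gate, and with Il1rap 0.51 and 0.08. Within the CD34-positive gate Il18rap ran against Mpo, the myeloperoxidase of early granulocytes (-0.56), and against Kit, the stem cell factor receptor (-0.54), and Il18r1 against Kit (-0.47). All are descriptions over 46 cells, which share a sort and their preparation. Genes found per cell also ran against Csf2rb, at -0.50 in the CD34-negative gate and -0.29 in the CD34-positive, and the part of this in the correlations was not tested.

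**Figure D5:**
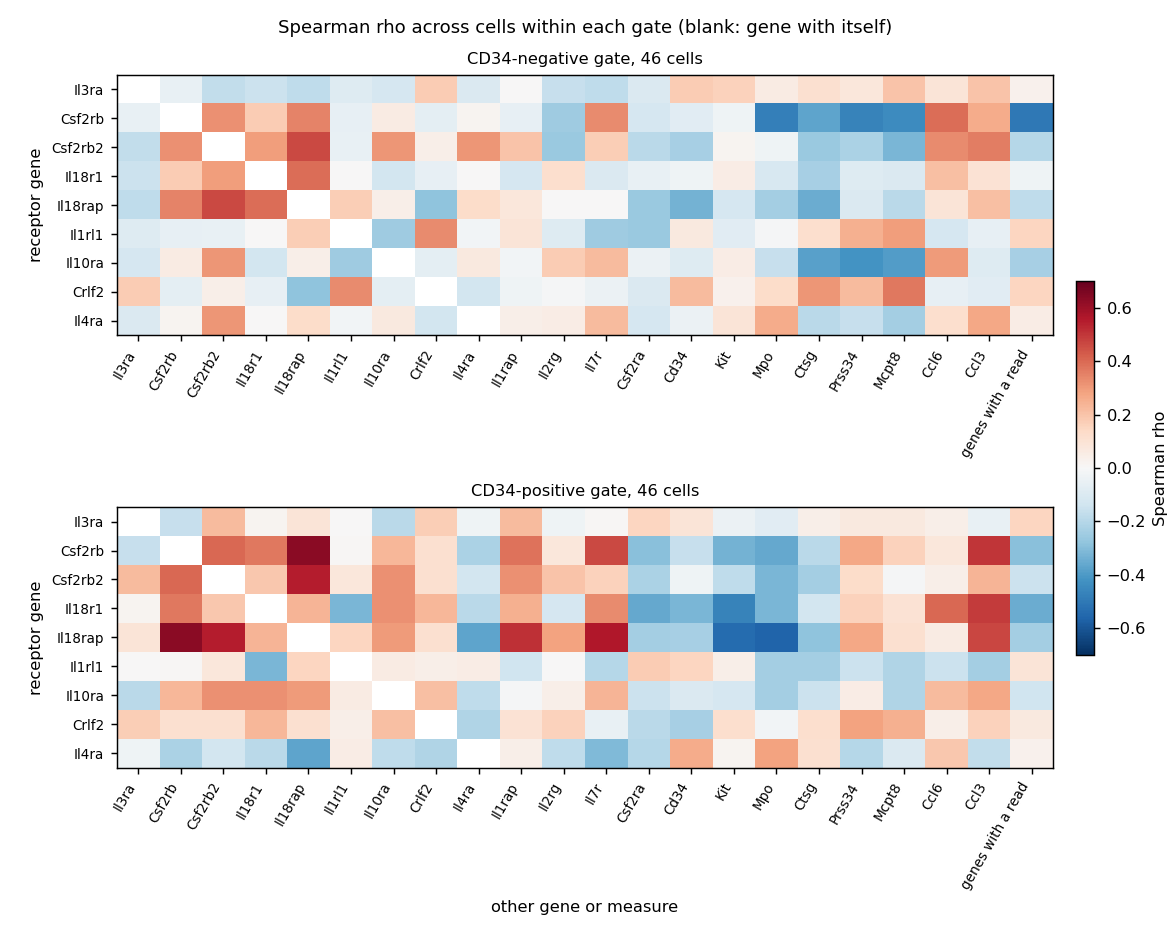
Spearman correlation of log2(CPM + 1) across the 46 cells of each gate between 9 receptor genes (rows) and other genes or the number of genes with a read (columns); red is positive, blue negative. Csf2rb, Csf2rb2 and Il18rap correlate with each other in both gates, and Il18rap correlates negatively with Kit and Mpo in the CD34-positive gate (-0.54 and -0.56).

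The genes whose levels were most like a receptor gene were sought among 8011 genes with a read in at least 30 cells, by Spearman correlation over the 92 cells and by the mean of the correlations within each gate. Csf2rb2 and Il18rap were among the 3 most like each other by both measures, at 0.74 over all cells and 0.51 within gates. Lyst, a gene for the traffic of lysosomes, was the most like Csf2rb2 over all cells (0.76) and the most like Csf2rb (0.54) and Il18rap (0.53) within gates. Csf2rb was most like the unnamed gene ENSMUSG00000089672 and Grina over all cells, both at 0.75, and Il18r1 most like the same unnamed gene (0.69). Fam117b was the most like Il1rl1 by both measures, at 0.59 and 0.49. Il3ra and Crlf2 had no close match, with highest values of 0.39 (Gng5) and 0.37 (Pon2). Correlations over both gates also carry the difference between gates.

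Markers of other cell types were read beside these values. Mast cell markers had reads for 5 of 6 genes and summed to 1.017 and 7.858 CPM, with Mrgprb2 at 0. Tpsab1 had the most reads among them, 150 in the CD34-positive gate, all in cell 5. Neutrophil markers had reads for 5 of 8 genes and summed to 19.70 and 71.19 CPM, with Ltf, Camp and Retnlg at 0. Lcn2 made up 19.61 and 66.60 CPM of this, with a read in 6 and 26 cells. Innate lymphoid (ILC2) markers, cells that also carry ST2 and Il7r, had reads for 5 of 7 genes and summed to 250.1 and 96.30 CPM, with Areg and Klrg1 at 0 and Il7r the largest part in the CD34-negative gate. Of the 5 genes, 1 was at least 2-fold lower (Il7r) and 2 at least 2-fold higher (Thy1 and Gata3), with a median log2 fold of -0.04. Over the 12460 genes, 10.1% were lower and 21.7% higher. Gata3 had 8 and 87 reads. CD34-positive cell 16 held 73.6% of the latter, and without it the log2 fold of Gata3 was 0.53, within 2-fold. Thy1 had 6.997 and 26.74 CPM (log2 fold 1.79, and 1.19 without CD34-positive cell 7). Monocyte and dendritic markers summed to 506.7 and 43.72 CPM, of which Ccr2 made up 493.4 and 40.52 CPM, and ranged from 0 to 1943 CPM in CD34-negative and from 0 to 813.0 CPM in CD34-positive cells. The part of these levels in the receptor genes was not tested beyond leaving out single cells.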

How the data were processed

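The authors deposited whole read counts per gene, not normalized, in a table whose columns are cells. Single cells were index-sorted, polyadenylated RNA was amplified by a Smart-seq2-type protocol with 19 PCR cycles, and 50-base single-end reads were sequenced, per the labels' protocols. The submitters' processing notes name GSNAP, HTSeq 0.5.3p3 and mm10. The strand setting is not given in the sources used here.

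The filter asked of a cell 50000 gene reads, 1000 genes with a read, under 20% mitochondrial reads and under 50% ERCC reads. This left out 2 of 94 cells. Doublets were not called in these singly sorted cells. Counts were summed per gate and divided by the gate's 33444417 (CD34-negative) or 30031728 (CD34-positive) gene reads to give CPM. Log2 folds used a pseudocount of 1 CPM. Sums have exact Poisson and shares Clopper-Pearson 95% intervals, and a fold interval sets one gate's upper bound against the other's lower bound. Detection used 200000 gene reads drawn per cell. A count of 0 allows up to 3 counts, of cells for a share and of reads for a level. Symbols were matched for 45143 of 46078 identifiers. Positions and exon lengths are from GENCODE annotation of GRCm38, promoters from RefSeq. The fold calculation was tested on simulated data.

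The receptor genes and gene lists were chosen with earlier results of these data known. Named besides them are partner chains, ligands, pathway and receptor genes past 2-fold with 10 CPM in a gate, the 3 most like genes per measure, and genes chosen after their values were seen (Csf1r, Tnfrsf1b, Kit, Mpo, Il6st, Il1r2, Il1r1, Il1rl2, Slc9a4, Il18bp, Socs1, Tnfrsf1a and single markers). Alternatives were cell filter, mean of cells, TMM, scran and ERCC scaling, totals without mitochondrial genes, pseudocount, low-gene filter, drawing depth and single cells left out. The tools were scran 1.30.0 and edgeR 4.0.16 (for TMM only) in R 4.3.3, and Biopython 1.88, pandas 2.3.3, scipy 1.17.1, numpy 2.4.6 and matplotlib 3.10.9 in Python 3.11.15.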

Additional observations from a re-analysis of the deposited data

Results flagged for a closer look

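Reads of the receptor genes were also found in the 2 cells that were left out for having under 50000 gene reads, above the 3 reads that a count of 0 allows. Cell 3 of the CD34-positive gate had 7 reads of Il3ra, 14 of Csf2rb, 14 of Csf2rb2 and 33 of Il18rap. Cell 20 of the CD34-negative gate had 21 reads of Csf2rb.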

How the results depend on the processing

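Of 108 recalculated log2 folds of the 9 receptor genes with reads, 63 stayed within their counting interval, 43 left it and 2 changed direction: Il3ra to 0.49 relative to ERCC reads and Crlf2 to -0.05 with scran size factors. Relative to ERCC reads, 3 genes were at least 2-fold lower and 2 at least 2-fold higher, in place of 6 and 0. Every other setting kept 6 and 0. With each cell left out in turn the median of the members was -1.72 to -1.55, the counts 6 to 6 and 0 to 0, the difference of the gates' median number of genes per cell 0 to 0, and the share of cells with both IL-18 receptor chains 100 to 100% (CD34-negative) and 55.6 to 57.8% (CD34-positive). Of 120 recalculated shares of cells, 115 stayed within their interval and 5 left it, all where at least 10 reads were asked for (Il3ra 60.9%, Csf2rb2 91.3% and Il4ra 4.35% in the CD34-positive gate, Crlf2 in both). Drawing without the cell filter was not run apart, since both cells it would add are shallower than the draw. Use of cells 7 to 42 only, and leaving out cells 25 and 36 or cell 10 of the CD34-negative gate, and single-cell checks of the gene lists, were chosen after seeing the data. No paired analysis was possible because the replicate numbers only name cells and no mouse is given for a cell. Il4ra, Il10ra and Il5ra had no read in most cells, also without drawing.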

Other observations

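Of 32 other cytokine receptor genes, 29 had reads. In the CD34-positive gate 5 were at least 2-fold lower, 8 at least 2-fold higher and 16 within 2-fold, with a median log2 fold of 0.05, and of -0.03 with genes at 0 in a gate set at 3 reads there. Relative to ERCC reads 2 were lower and 12 higher, with a median of 0.73, and with scran size factors 9 were lower and 4 higher. Over the 12460 genes, 10.1% were lower and 21.7% higher relative to gene reads. The shares were 2.34% and 52.7% relative to ERCC reads and 13.7% and 17.6% with scran size factors. When the cell with most reads of a gene was left out of either gate, 3 of the 5 lower genes stayed past 2-fold (Il17ra, Ifnar2 and Csf1r) and 4 of the 8 higher ones (Kit, Il27ra, Epor and Tnfrsf1a). Among the lower ones, Il17ra, a chain of the IL-17 receptor, had 548.5 and 199.2 CPM (log2 fold -1.46) with a read in all 46 cells of each gate. Ifnar2, a chain of the type I interferon receptor, had 211.5 and 69.53 CPM (log2 fold -1.59). Relative to ERCC reads these were -0.49 and -0.63, within 2-fold, and the 2 lower genes were Csf1r and Il6st, of which cell 10 held 75.8% and 91.6% of the CD34-negative reads. Among the higher ones, Kit had 6 reads over the CD34-negative and 3279 over the CD34-positive cells, with a read at 200000 reads in 0 and 24 cells. Il27ra, the IL-27 binding chain, had 10.08 and 46.22 CPM (log2 fold 2.09), and Ifngr1, a chain of the interferon gamma receptor, 62.97 and 132.1 CPM (log2 fold 1.06). Cell 10 of the CD34-negative gate held 21.3% of the Ifngr1 reads of its gate, and the log2 fold was 1.39 without it, 0.89 without CD34-positive cell 9, 0.46 with scran size factors and 0.93 with TMM factors. Il11ra1, the IL-11 binding chain, had 7.505 and 16.82 CPM (log2 fold 1.07, and 0.90 without CD34-positive cell 40). Epor, the erythropoietin receptor, had 0 reads over the CD34-negative cells and 373 over the CD34-positive ones, found in 4 cells.

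Cell 10 of the CD34-negative gate had the highest level of its gate for Il2rg (387.9 CPM), Il10rb (741.6 CPM), Csf2ra (289.0 CPM) and Tnfrsf1b, a TNF receptor (3160 CPM). It had no read of Il3ra, Il1rl1, Crlf2, Il4ra or Il7r, and 1 read each of Il18r1 and Il18rap.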
